A study of Homo sapiens with 6 samples.

Results

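Long intergenic non-coding RNAs (lincRNAs) made up 7629 of the 58735 genes in the count table, and 276 of them are described here. These are the lincRNA rows selected on 1 measured value, their level: the mean over the 6 libraries had to be at least 1 in counts-per-million (CPM), here of the library total. By the same level, 11724 protein-coding and 346 antisense genes were expressed. Just inside the limit stood AL845552.2 at 1.01 and AP000350.6 at 1.02 CPM, and just outside it AC106782.2 at 0.999 and AC020912.1 at 0.996. Since levels chose them, levels are given as a description, and the difference between the groups took no part in the choice.

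All 6 libraries came from ARPE-19, a long-used human cell line of the retinal pigment epithelium (RPE). The NC group, 3 libraries, has the genotype label WT, and the OE CD51 ICD group, also 3 libraries, came from the same line overexpressing CD51-ICD. ITGAV encodes CD51, also called integrin alpha V, and the series title names SPP1, ITGAV, dry AMD (age-related macular degeneration) and EMT (epithelial-mesenchymal transition). The labels give no vector, time after transfer, clone or control construct, and do not say that the libraries of a group are separate cultures, so p-values rest on the spread from library to library, which can be partly technical.

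LincRNAs are transcripts longer than small RNAs, usually spliced and capped like messenger RNA, that have no long reading frame. Many stay in the nucleus, some act in the cytoplasm, and others serve as precursors, since microRNAs (miRNAs) and small nucleolar RNAs (snoRNAs) are cut from their exons or introns. The act of transcribing them, or the DNA they start from, can also bear on a neighbouring gene, which is why the nearest protein-coding gene is given beside many of them.

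Library totals ran from 13616694 to 16934668 counts. ITGAV rose from 98.4 ± 12.9 to 448 ± 83.5 CPM (from here on scaled by TMM; mean ± SD, n = 3), a log2 fold change of 2.18. Epithelial keratin genes were high, KRT8 at 3718 and 3461 CPM in NC and OE CD51 ICD, and OTX2, an RPE transcription factor, stood at 27.8 and 28.9 CPM. Of the other RPE markers checked, the pigment cell factor MITF was lower (26.6 and 18.0 CPM), while PMEL (8.93 and 15.6 CPM) and RLBP1 (1.91 and 3.32 CPM) were higher. RPE65 had no count in any library, and BEST1 and TYR were under 1 CPM in each group. Each marker of microglia, fibroblasts and endothelium that was checked was under 1 CPM in both groups, except VWF at 1.04 CPM in NC. In bulk RNA, fewer cells of a kind and less RNA per cell cannot be told apart.

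More lincRNAs rose than fell in OE CD51 ICD. All 276 entered the test, with 83 called higher, 37 called lower and 156 not called (edgeR's quasi-likelihood test, Benjamini-Hochberg adjusted p under 0.05 over 13787 genes). The called share was 43.5%, against 51.0% of all genes tested. By direction, 30.1% of the lincRNAs were higher, against 25.2% of all genes, and 13.4% were lower, against 25.8%. The median log2 fold change was 0.16 for the lincRNAs, 0.18 for antisense genes of the same level, -0.01 for such protein-coding genes and 0.01 for all genes tested.

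The difference in direction was larger among changes of at least 2-fold. Of the 276, 57 rose by that much, which is 20.7% against 6.89% of all genes, and 17 fell by that much, which is 6.16% against 5.83%. LincRNAs are weakly expressed, so genes of like level were set beside them. At means of 1 to 5 CPM by library total, 19.7% of 213 lincRNAs and 9.21% of 2149 protein-coding genes rose at least 2-fold, while 6.10% and 10.2% fell at least 2-fold. At 5 CPM or more, 23.8% of 63 lincRNAs and 5.04% of 9574 protein-coding genes rose at least 2-fold, and 6.35% and 4.87% fell that far. Antisense genes also leaned upward, so the lean is not particular to lincRNAs. At 1 to 5 CPM, 12.9% of 287 antisense genes rose at least 2-fold and 5.92% fell that far. At 5 CPM or more, 8.47% of 59 rose at least 2-fold and 1.69% fell that far.

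The choice by mean level let in lincRNAs that were expressed in 1 group. Of the 276, 38 were under 1 CPM in NC, and 30 of these were called higher, while 18 were under 1 CPM in OE CD51 ICD, and 10 of these were called lower. Such genes had to differ to be included, so the 220 with at least 1 CPM in both groups are given too. Among those, 53 were higher and 27 lower. That is 24.1% higher, a little under the 25.2% of all genes, and 12.3% lower, against 25.8%. All genes tested had a median of 15.9 CPM by library total and met no rule on both groups. At means of 1 to 5 CPM by library total, 19.3% of all genes were called higher and 14.5% lower. Genes of like level with at least 1 CPM in both groups were not counted, so an excess of rises among the 220 was not tested. The median log2 fold change of the 220 was 0.10, 12.7% rose at least 2-fold and 3.64% fell at least 2-fold. The 3 libraries of each group did not overlap for 141 lincRNAs, or 51.1%, against 57.5% of all genes tested.

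**Figure D1:**
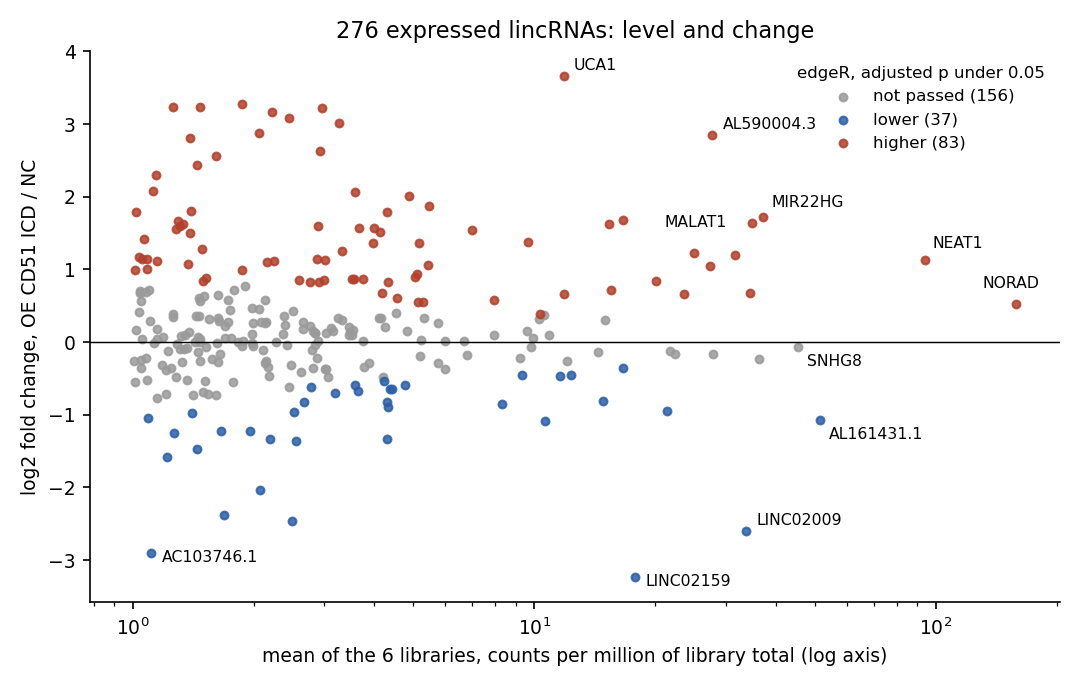
Each point is 1 of the 276 lincRNAs, with its mean over the 6 libraries in CPM by library total on a log axis and its log2 fold change (OE CD51 ICD over NC). Red points were called higher (83), blue points lower (37) and grey points did not pass (156). The 2 abundant lincRNAs with the largest falls, LINC02159 and LINC02009, stand alone at the lower right.

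LincRNA reads were a small part of each library. The 276 held 0.148%, 0.154% and 0.151% of all counts in the NC libraries and 0.182%, 0.189% and 0.173% in the OE CD51 ICD libraries. The groups did not overlap, and the means were 0.151 ± 0.00300% and 0.181 ± 0.00801% (SD, n = 3; two-sided exact permutation p = 0.1, the smallest that 3 against 3 can give). Without NORAD, NEAT1 and MALAT1 the means were 0.130% and 0.145%. Levels were low, with a median of 2.46 CPM, and 213 of the 276 lay between 1 and 5.

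The 10 most abundant lincRNAs, each at 30 CPM or more, held 32.7% of lincRNA counts in NC and 34.3% in OE CD51 ICD. Of these, NORAD, NEAT1, MIR22HG, MALAT1, CYTOR and IGFL2-AS1 were called higher, AL161431.1 and LINC02009 were called lower, and SNHG8 and AC092171.2 did not pass. CPM is not divided by length, so it favours long transcripts. By deposited FPKM, which is per length, SNHG8 led at 50.1 in NC and 47.6 in OE CD51 ICD, while NEAT1 stood 36th and MALAT1 41st.

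NORAD, a cytoplasmic RNA that binds Pumilio proteins and guards genome stability, was the most abundant by count. Its libraries held 135, 122 and 135 CPM in NC and 183, 212 and 166 CPM in OE CD51 ICD. The groups did not overlap, and the log2 fold change was 0.52 ± 0.09 (SE; edgeR's quasi-likelihood test, adjusted p = 1.3e-05). Of its transcript, 18.9% is nearly identical to other loci, so part of its reads could be split among copies.

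NEAT1 and MALAT1 are neighbouring nuclear RNAs on chromosome 11, the scaffold of paraspeckles and a component of nuclear speckles. NEAT1 (chr11:65422774-65445540, GRCh38) stood at 56.1, 53.9 and 68.3 CPM in NC and at 129, 134 and 126 CPM in OE CD51 ICD, a log2 fold change of 1.13 ± 0.09 (edgeR adjusted p = 1.5e-11). MALAT1 (chr11:65497688-65506516) stood at 17.1, 16.5 and 18.0 CPM in NC and at 47.3, 65.8 and 47.1 CPM in OE CD51 ICD, a log2 fold change of 1.63 ± 0.12 (edgeR adjusted p = 3.0e-12). In both, every OE CD51 ICD library lay above every NC library. The libraries were made with a messenger RNA kit, per the labels' protocols, so forms without a poly(A) tail may be under-represented in both levels.

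CYTOR and MIR4435-2HG are relatives on chromosome 2 that are near-identical over part of their length. CYTOR is known as a regulator of the cytoskeleton and cell migration. CYTOR stood at 27.0, 27.6 and 26.0 CPM in NC and at 41.2, 40.0 and 46.9 CPM in OE CD51 ICD (log2 0.67 ± 0.11). For MIR4435-2HG the values were 14.5, 15.7 and 15.3 CPM against 34.6, 38.2 and 33.3 CPM (log2 1.22 ± 0.12). Neither gene's groups overlapped. Of the longest MIR4435-2HG transcript, 68.1% is at least 98% identical to CYTOR and its surroundings, so how the authors' counting divided reads between the pair is uncertain.

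IGFL2-AS1 and MIR22HG completed the abundant rises. IGFL2-AS1 went from 19.5 ± 1.54 to 44.6 ± 3.23 CPM (log2 1.19). MIR22HG, the host of miR-22, overlaps WDR81 and went from 17.7 ± 4.53 to 57.7 ± 6.86 CPM (log2 1.71), while WDR81 itself fell by 0.73 on the log2 scale. AL161431.1, a chromosome 13 transcript with no gene overlapping it, went the other way, from 68.7, 62.6 and 77.4 CPM in NC to 33.6, 31.4 and 33.8 CPM (log2 -1.08). SNHG8 had nearly the same level in all 6 libraries, 42.9 to 47.6 CPM.

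**Figure D2:**
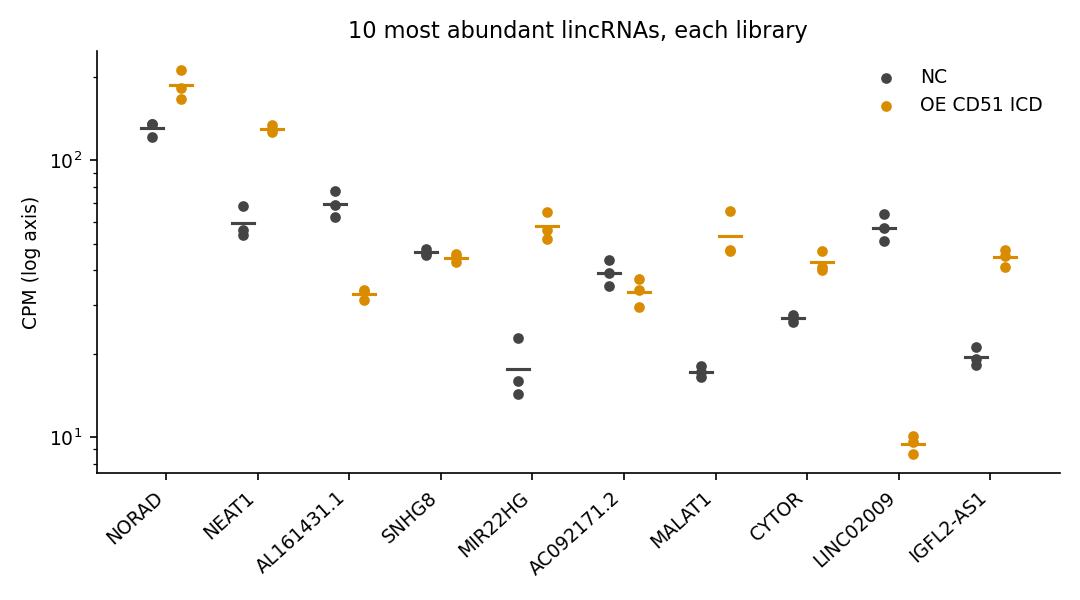
CPM on a log axis in each library for the 10 most abundant lincRNAs, NC in black and OE CD51 ICD in orange, with a bar at each group's mean. LINC02009 shows the widest separation downward (57.1 to 9.42 CPM) and MIR22HG the widest upward (17.7 to 57.7 CPM).

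The largest rise was that of UCA1 (chr19:15828206-15836326), urothelial cancer associated 1, a cytoplasmic RNA often raised in carcinomas. It stood at 1.16, 1.42 and 2.77 CPM in NC and at 20.7, 19.7 and 26.9 CPM in OE CD51 ICD. The lowest OE CD51 ICD library was several times the highest NC library, and the means differed 12.7-fold (log2 3.66 ± 0.22, edgeR adjusted p = 1.8e-14). Its nearest tested protein-coding gene, TPM4, a tropomyosin whose start lies 238815 bases away, rose by log2 1.39.

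The next rises were from low levels. LINC01629, on chromosome 14, had 5, 11 and 0 counts in NC, and its log2 fold change of 3.28 became 4.40 without NC replicate 2. LINC02551 stood at 0.984, 0.566 and 0.135 CPM in NC and at 6.65, 5.19 and 4.58 CPM in OE CD51 ICD, and its log2 fold change of 3.22 became 3.95 without NC replicate 1. AC104825.1 showed 0.752, 0.354 and 0.203 CPM against 4.21, 4.58 and 3.50 CPM, with log2 3.16, or 3.84 without NC replicate 1. These 3 had 0 to 17 counts per NC library, so the size of the rise is uncertain, and all were under 1 CPM in NC and were included through their OE CD51 ICD level.

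AC010343.3, MIR193BHG, AC013451.2 and ITGB1-DT complete the 8 largest rises, with log2 fold changes of 3.24, 3.23, 3.09 and 3.02. These were also under 1 CPM in NC and were included through their OE CD51 ICD level. AC013451.2 (chr14:74614693-74616647) lies on the strand of LTBP2, which encodes a latent TGF-beta binding protein of the matrix, 4269 bases between their starts. Its mean of 0.519 ± 0.268 CPM in NC became 4.48 ± 0.803 CPM, and that of LTBP2 went from 240.2 ± 14.8 to 1362 ± 25.8 CPM. ITGB1-DT overlaps ITGB1, which encodes the integrin beta 1 subunit, with 46947 bases between their starts. It went from 0.745 ± 0.457 to 5.91 ± 0.327 CPM, and ITGB1 from 396 ± 52.3 to 1136 ± 136.6 CPM. No source used here says whether counting used strand, and without it the reads of overlapping genes cannot be separated.

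AL590004.3, a chromosome 6 transcript that overlaps no other gene, was not among the 8 but was the most abundant with a rise over log2 2, and is named after its values were seen. NC libraries were nearly equal at 6.88, 6.94 and 6.83 CPM, whereas OE CD51 ICD libraries ranged over 51.0, 63.6 and 33.6 CPM. The log2 fold change was 2.84 ± 0.17 (edgeR adjusted p = 8.6e-15).

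Among the falls, LINC02159 and LINC02009 stood apart by level. LINC02159 (ENSG00000253417, chr5:160931778-160938626, minus strand) had 28.0, 30.3 and 37.0 CPM in NC and 3.29, 3.83 and 2.93 CPM in OE CD51 ICD. LINC02009 (ENSG00000283646, chr3:46416524-46423591, minus strand) had 56.7, 63.7 and 50.9 CPM in NC and 9.55, 10.05 and 8.66 CPM in OE CD51 ICD. Neither overlaps another gene, the groups were far apart in both, and the means were 9.44 and 6.05 times lower (log2 -3.24 ± 0.16 and -2.60 ± 0.12; edgeR adjusted p = 2.6e-16 and 4.5e-17).

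The promoter windows of these 2 lincRNAs, on different chromosomes, are alike in sequence, and they are printed for that reason. RefSeq windows (GRCh38.p14, 250 bases before to 50 after a start) were matched for 148 of the 276. Aligned with BLAST over at least 100 columns, the windows of LINC02159 and LINC02009 shared 178 identical bases in 211 columns, 84.4%. Among the 148 matched lincRNAs this was the 1 such pair on different chromosomes. No repeat annotation was used, and whether the shared stretch belongs to a repeat family was not tested. The other pair was CYTOR and MIR4435-2HG, with 241 of 241. Capitals mark matches to the AP-1 motif TGANTCA, which reads the same on both strands and lies inside the aligned stretch. Each window is given 5′ to 3′ along the gene.
LINC02159 chr5:160938577-160938876 minus strand: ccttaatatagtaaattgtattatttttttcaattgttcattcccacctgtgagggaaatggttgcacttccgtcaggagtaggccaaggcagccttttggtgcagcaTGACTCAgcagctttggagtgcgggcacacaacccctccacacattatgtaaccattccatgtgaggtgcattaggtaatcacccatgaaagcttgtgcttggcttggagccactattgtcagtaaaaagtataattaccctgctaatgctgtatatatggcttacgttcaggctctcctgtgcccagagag
LINC02009 chr3:46423618-46423917 minus strand: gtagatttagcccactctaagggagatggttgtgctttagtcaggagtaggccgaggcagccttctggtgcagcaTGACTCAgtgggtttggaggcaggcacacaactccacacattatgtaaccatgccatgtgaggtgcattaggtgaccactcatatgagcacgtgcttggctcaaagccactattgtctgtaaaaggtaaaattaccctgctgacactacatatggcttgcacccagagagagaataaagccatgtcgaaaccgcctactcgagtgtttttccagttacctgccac
Over all 35116 windows, 3 other RefSeq symbols aligned with one or the other, LCAL1, LOC124901395 and LOC107984361. None of these symbols is in the count table, so their change was not measured here. LINC02159 and LINC02009 transcripts share no stretch of at least 98% identity with other loci.

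The other 6 of the 8 largest falls were of lower level, 1.81 to 4.19 CPM in NC. These 6 were under 1 CPM in OE CD51 ICD and were included through their NC level. AC103746.1 (chr15:96342953-96345651) follows NR2F2, which encodes the nuclear receptor COUP-TFII, on the same strand after 2690 bases. It had 1.97, 1.56 and 2.30 CPM in NC and 0.132, 0.342 and 0.286 CPM in OE CD51 ICD (log2 -2.91), and NR2F2 went from 235.8 ± 4.93 to 66.8 ± 1.498 CPM. LINC01569 follows TFAP4, a helix-loop-helix factor gene, after 3369 bases, and went from 3.30 ± 0.711 to 0.801 ± 0.0691 CPM while TFAP4 went from 10.03 ± 1.09 to 3.33 ± 0.384 CPM. ELFN1-AS1 overlaps ELFN1, and the pair fell by 2.47 and 2.001 on the log2 scale.

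SFTA1P, a transcribed pseudogene named surfactant associated 1, went from 1.68, 3.82 and 2.91 CPM in NC to 0.461, 0.888 and 0.215 CPM. Its log2 fold change of -2.39 was -2.98 without OE CD51 ICD replicate 2. CELF2, whose start is 3417 bases from that of SFTA1P, did not follow it and was higher by log2 0.25. PGM5P4-AS1 fell by 1.59, but all of its longest transcript is nearly identical to PGM5P3-AS1, so its own level is uncertain. AC103718.1 fell by 1.47, the smallest of the 8.

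**Figure D3:**
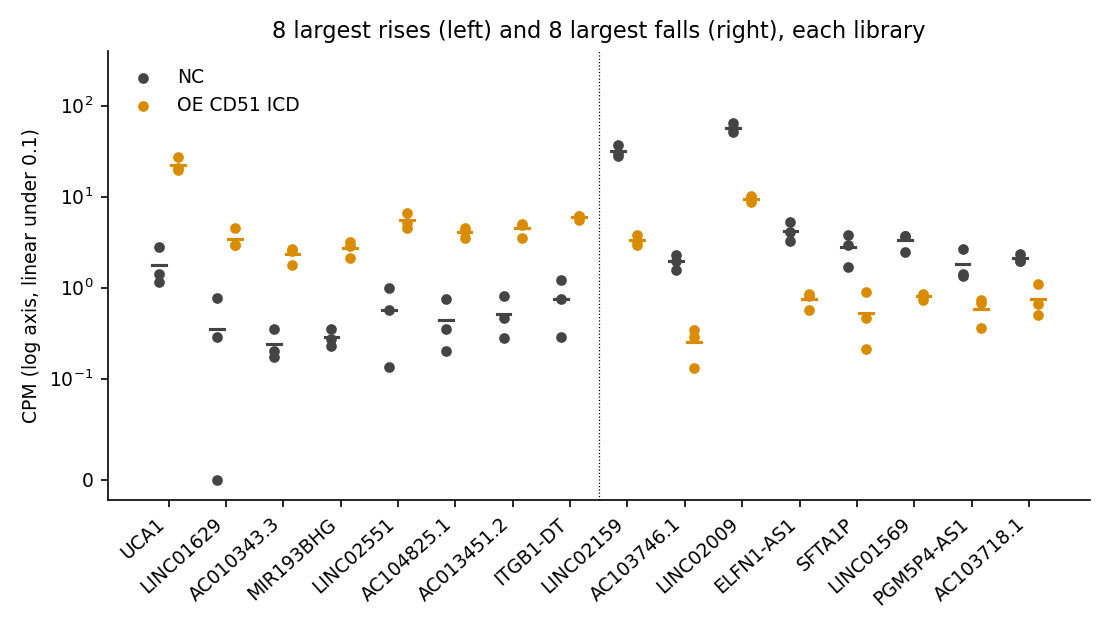
CPM in each library (log axis, linear under 0.1) for the 8 largest rises on the left and the 8 largest falls on the right, NC in black and OE CD51 ICD in orange, with a bar at each group's mean. The genes were chosen among those whose groups do not overlap. LINC02159 and LINC02009 start from 31.8 and 57.1 CPM, and the other falls from 4.19 CPM or less.

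LincRNAs that contain miRNA genes mostly rose. By position, 16 of the 276 hold 29 miRNA genes on their own strand, and of the 16, 11 rose, 2 fell and 3 were not called, with a median log2 fold change of 0.98. Over all genes tested, 25.2% were higher and 25.8% lower. Of the 11, MIR193BHG, AC048341.1 and MIR137HG were under 1 CPM in NC and so were included through the group in which they are high, which leaves 8. CYTOR and MIR4435-2HG, counted separately among the 11, carry the same miR-4435 and share sequence, so their reads may be divided between them. Of 8 tested known miRNA hosts that carry another biotype, 3 were higher, 0 lower and 5 did not pass. Mature miRNAs were not measured by these libraries, so the values below are those of the host transcripts. The mature sequences are printed to show what the hosts carry, 5′ to 3′ from RefSeq (GRCh38.p14), with the seed, bases 2 to 8, in capitals.
miR-193b-3p (host MIR193BHG): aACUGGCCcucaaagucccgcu
miR-365a-3p (host MIR193BHG): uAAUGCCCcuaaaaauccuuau
miR-22-3p (host MIR22HG): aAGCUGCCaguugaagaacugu
miR-210-3p (host MIR210HG): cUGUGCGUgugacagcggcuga
miR-137-3p (host MIR137HG): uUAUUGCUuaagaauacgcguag
miR-29b-3p (host MIR29B2CHG): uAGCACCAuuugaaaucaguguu
miR-29c-3p (host MIR29B2CHG): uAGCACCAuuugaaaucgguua
let-7i-5p (host AC048341.1): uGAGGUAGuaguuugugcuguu
let-7b-5p (host MIRLET7BHG): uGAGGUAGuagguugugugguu
miR-4458 (host MIR4458HG): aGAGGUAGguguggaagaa
miR-30a-5p (host LINC00472): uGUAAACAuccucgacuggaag
miR-30c-5p (host LINC00472): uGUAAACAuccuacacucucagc
Among these, 3 seeds recur: AGCACCA in both miR-29 members, GAGGUAG in let-7i, let-7b and miR-4458, and GUAAACA in both miR-30 members.

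MIR193BHG, host of the miR-193b and miR-365a pair, had 0.231, 0.354 and 0.270 CPM in NC and 3.16, 2.12 and 2.86 CPM in OE CD51 ICD (log2 3.23 ± 0.41, edgeR adjusted p = 1.3e-07). MIR22HG had 15.9, 22.8 and 14.3 CPM against 65.2, 56.2 and 51.8 CPM. MIR210HG, host of the hypoxia-induced miR-210, had 7.58, 6.65 and 8.72 CPM against 27.0, 22.8 and 20.7 CPM (log2 1.62). In these 3 hosts every OE CD51 ICD library was above every NC library. MIR137HG, host of a miRNA studied in neurons, went from 0.656 ± 0.146 to 2.03 ± 0.609 CPM, and overlaps DPYD.

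MIR29B2CHG, host of the miR-29b and miR-29c pair whose known targets include collagens, had 2.55, 1.91 and 1.42 CPM in NC and 4.74, 5.81 and 3.65 CPM in OE CD51 ICD (log2 1.26). Its groups did not overlap. The hosts of the GAGGUAG seed differed in their values. AC048341.1, which RefSeq names MIRLET7IHG, went from 0.426 ± 0.126 to 1.84 ± 0.909 CPM (log2 2.08), whereas MIRLET7BHG (5.27 ± 0.589 and 6.30 ± 1.26 CPM) and MIR4458HG (1.57 ± 0.198 and 1.91 ± 0.647 CPM) did not pass. Whether the hosts differ from each other in their response was not tested. MIR34AHG, host of the p53 target miR-34a, also did not pass, at 9.11 ± 1.21 and 10.1 ± 0.887 CPM.

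The 2 hosts called lower were LINC00472, with 4.30 ± 0.204 and 2.85 ± 0.677 CPM, and PVT1, the neighbour of MYC, with 10.8 ± 1.17 and 7.85 ± 1.67 CPM. Both calls were near the threshold (edgeR adjusted p = 0.039 and 0.030). Without OE CD51 ICD replicate 1 the adjusted p of LINC00472 was 0.21, and without OE CD51 ICD replicate 2 that of PVT1 was 0.17. LINC00472 also lost its call without each NC library in turn (adjusted p = 0.058, 0.099 and 0.054) and without OE CD51 ICD replicate 2 (0.093), and PVT1 without NC replicate 3 (0.11) and OE CD51 ICD replicate 3 (0.064). Among the hosts called higher, MUC20-OT1 (log2 0.55, adjusted p = 0.030) lost its call without NC replicate 1 (0.14), NC replicate 2 (0.11), OE CD51 ICD replicate 1 (0.061) or OE CD51 ICD replicate 2 (0.096). FTX (log2 0.83) kept its call without each library, but lost it with limma on log2(FPKM + 1) and log2(FPKM + 0.1) (adjusted p = 0.11 and 0.062).

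The lincRNAs that hold snoRNA genes were few, and most were not called. Of the 7 with snoRNA genes on their own strand, none was called higher at an edgeR adjusted p under 0.05. Among them 1 was lower and 6 did not pass, with a median log2 fold change of -0.12. Over all genes tested, 25.2% were higher and 25.8% lower, and 7 hosts are too few to set against these shares. The 1 called was SNHG15, with 20.2, 17.8 and 18.5 CPM in NC and 11.8, 8.75 and 11.6 CPM in OE CD51 ICD (log2 -0.81 ± 0.15, edgeR adjusted p = 3.0e-05). SNHG8, SNHG19, SNHG18, SNHG4, EPB41L4A-AS1 and LINC02001 had log2 fold changes between -0.37 and 0.31. Of 16 tested snoRNA hosts that carry another biotype, 1 was higher, 5 lower and 10 did not pass. GAS5, a host that accumulates when growth stops, was among the 5, at 127 ± 2.25 and 102.2 ± 5.56 CPM. The difference between miRNA and snoRNA hosts was not tested.

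**Figure D4:**
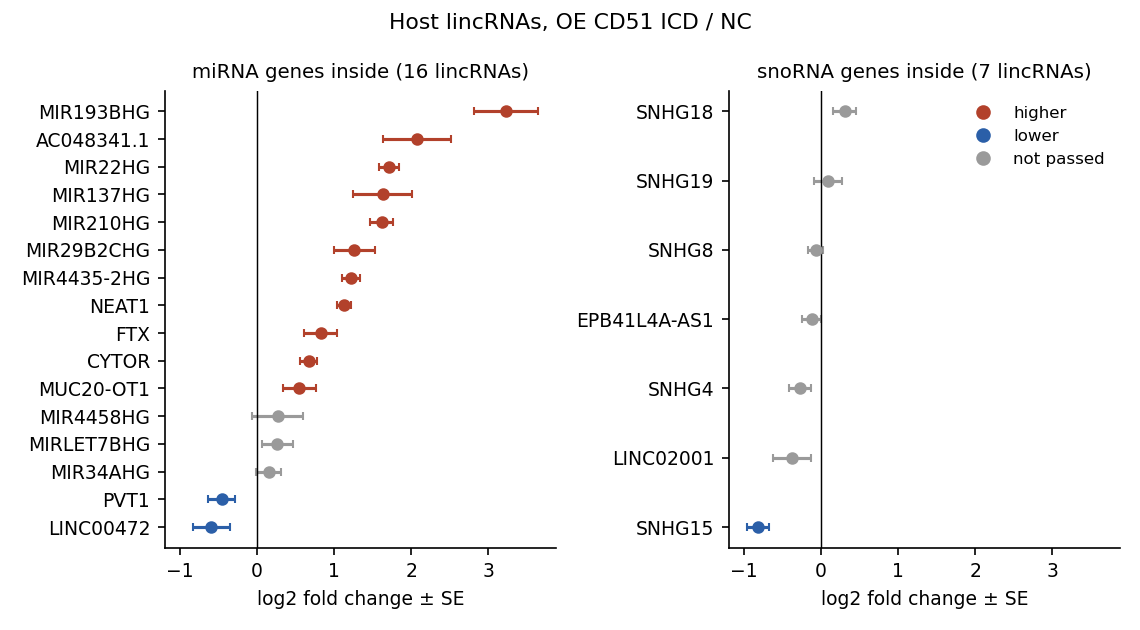
Log2 fold change (OE CD51 ICD over NC) with its standard error for the 16 lincRNAs that hold miRNA genes and the 7 that hold snoRNA genes, red where called higher, blue where lower and grey where not passed. MIR193BHG is at the top of the miRNA hosts (3.23), and SNHG15 at the bottom of the snoRNA hosts (-0.81).

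Lists of well-known lincRNAs were small, and their counts stand beside 25.2% of all genes called higher and 25.8% lower. Of 5 members listed as nuclear or chromatin-associated, CASC15, MALAT1, NEAT1 and FTX were higher and PVT1 was lower. CASC15, studied in neuroblastoma and melanoma, had 2.02, 2.12 and 1.76 CPM in NC and 7.70, 8.20 and 7.87 CPM in OE CD51 ICD, groups that were far apart (log2 2.004 ± 0.21). The 3 cytoplasmic members, UCA1, CYTOR and NORAD, were all called higher. Of the tested genes on that list with another biotype, DANCR was lower (log2 -0.38) and OIP5-AS1 did not pass.

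Of 9 members linked to EMT or TGF-beta in earlier literature, 7 were called higher, 0 lower and 2 did not pass, with a median log2 fold change of 1.22. LINC01711, 1 of the 7, was under 1 CPM in NC and was included through its OE CD51 ICD level. Besides UCA1, MALAT1, MIR4435-2HG, NEAT1 and CYTOR, these were LINC00941, with 1.62, 2.34 and 2.57 CPM in NC and 5.99, 5.74 and 6.87 CPM in OE CD51 ICD, and LINC01711, from 0.468 ± 0.224 to 1.60 ± 0.263 CPM. LINC01503 stood at 2.93 ± 0.904 and 3.33 ± 0.32 CPM, and LINC01133 at 1.44 ± 0.149 and 0.847 ± 0.184 CPM, which did not pass. The literature's links come from other cells, and the list was drawn up with results of these data known, so its count is no independent evidence of a direction.

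Of 4 members linked to p53, NEAT1 was higher, PVT1 and TP53TG1 were lower and MIR34AHG did not pass. TP53TG1, an RNA induced by p53, had 5.50, 3.96 and 5.47 CPM in NC and 3.55, 2.87 and 3.93 CPM in OE CD51 ICD. Its call (edgeR adjusted p = 0.048) was lost without NC replicate 1 (0.14), NC replicate 3 (0.12), OE CD51 ICD replicate 1 (0.093) or OE CD51 ICD replicate 2 (0.18). The list of lincRNAs linked to proliferation had PVT1 as its 1 member.

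The biotype says intergenic, but 154 of the 276 overlap another gene of the table and 64 overlap a protein-coding gene, while 122 overlap none. Of the 122, 29 were higher and 19 lower, or 23.8% and 15.6% against 25.2% and 25.8% of all genes, with a median log2 fold change of 0.016 against 0.01. Among lincRNAs that overlap no gene, then, the share called higher was no larger than over all genes, most of which were of higher level. At means of 1 to 5 CPM by library total, 19.3% of all genes were called higher and 14.5% lower. The 122 were not set beside genes of like level. Of the 154, 54 were higher and 18 lower, with a median of 0.26. The difference between these 2 sets was not tested.

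LincRNAs tended to move with the nearest protein-coding gene. Of 77 pairs in which both genes were called, 65 had the same direction, or 84.4%. In 20 of the 77 the lincRNA was under 1 CPM in NC, and in 7 it was under 1 CPM in OE CD51 ICD. Such lincRNAs were included through the group in which they are high. With at least 1 CPM in both groups, 43 of 50 pairs had the same direction. Over all 77, the count with starts within 10 kb of each other was 21 of 23. At 10 to 100 kb it was 28 of 30, and over 100 kb it was 16 of 24. For protein-coding genes and their nearest protein-coding gene the shares were 77.4%, 69.3% and 64.1%. Across all 276 pairs the Pearson correlation of the log2 fold changes was 0.43, and by distance it was 0.54, 0.52 and 0.16, as a description, since the pairs share libraries and some share reads or a neighbour.

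By distance from the nearest protein-coding start, 29.2% of lincRNAs were called within 10 kb, 52.6% at 10 to 100 kb and 57.4% beyond, against 51.0% of all genes. The difference between these classes was not tested. A divergent start within 1 kb of a protein-coding start was found for 60, and of these 10 were higher, 5 lower and 45 not passed. In 7 divergent pairs both genes were called, and all 7 had the same direction. Of these lincRNAs, BX322562.1, AC004816.1, WWC2-AS2 and AL049775.1 were under 1 CPM in NC and were included through OE CD51 ICD, and OSER1-DT, AC004816.1 and AL049775.1 lost their calls when single libraries were left out (highest edgeR adjusted p = 0.075, 0.095 and 0.11). GAS6-DT, opposite GAS6, which encodes a ligand of the TAM receptors used in phagocytosis by RPE, had 4.05, 3.33 and 3.38 CPM in NC and 9.22, 11.6 and 10.8 CPM in OE CD51 ICD (log2 1.55), and GAS6 rose by log2 0.76. RAB30-AS1 (log2 1.12) and RAB30 (log2 1.21) formed another such pair.

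**Figure D5:**
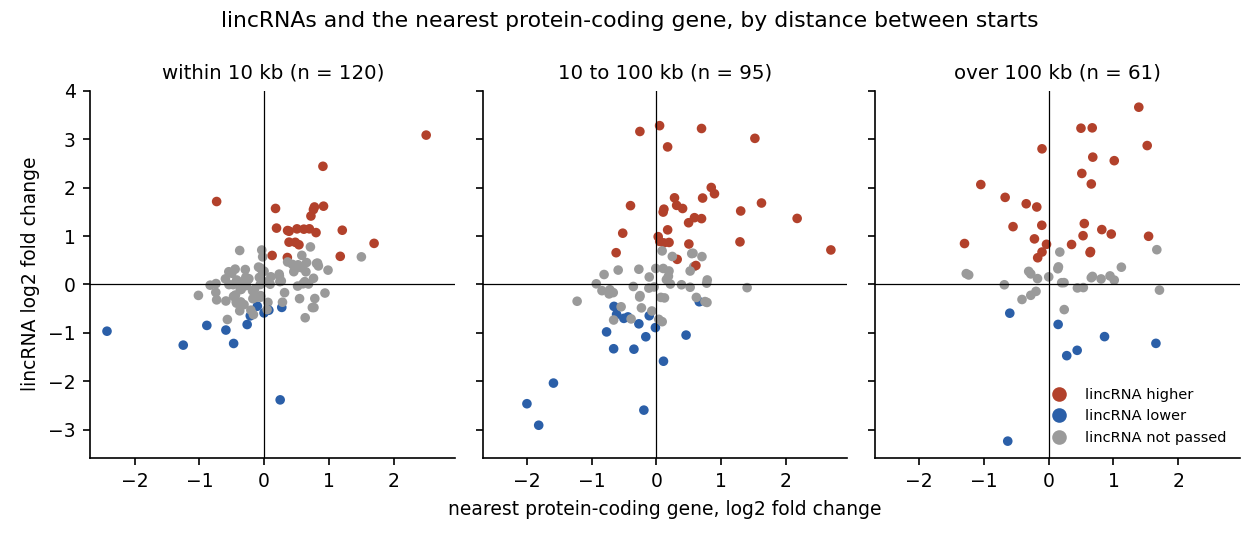
Log2 fold change of each lincRNA (vertical) against that of its nearest tested protein-coding gene (horizontal), in panels by the distance between their annotated starts, with red, blue and grey for lincRNAs called higher, lower and not passed. The points lean upward to the right within 10 kb and at 10 to 100 kb (Pearson 0.54 and 0.52) and less over 100 kb (0.16).

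A further 51 lincRNAs lie on the strand of a protein-coding gene and start within 20 kb after its end. Of these, 15 were higher and 10 lower, so that 49.0% were called, against 51.0% of all genes. Of the 15, AC048341.1, AC104825.1, AL365203.2, FLJ22447, LINC01355 and LINC02551 were under 1 CPM in NC and were included through OE CD51 ICD. Of the 10, LINC01569, AC103746.1 and AL445205.1 were under 1 CPM in OE CD51 ICD and were included through NC. In 15 pairs both genes were called, and these pairs hold all of those lincRNAs except LINC01355 and AL445205.1. Of the 15 pairs, 14 had the same direction, the exception being LINC01836 (log2 -0.67) after MISP (log2 2.16). Some of these pairs, such as AC103746.1 with NR2F2 and LINC02551 with SNX19, are also among the nearest-gene pairs above. The 14 are therefore not separate from that count, and the share for same-strand pairs of protein-coding genes was not counted. LINC01836 lost its call without OE CD51 ICD replicate 3 (adjusted p = 0.090). Whether any of these transcripts is readthrough from the gene before it was not tested.

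AL365203.2, after ITGB1 by 11008 bases, had 0.521, 0.354 and 0.608 CPM in NC and 3.55, 4.99 and 2.50 CPM in OE CD51 ICD (log2 2.87), so that both lincRNAs beside ITGB1 rose with it. OLMALINC lies 8679 bases after SCD, which encodes stearoyl-CoA desaturase, and went from 2.25 ± 0.491 to 5.79 ± 0.452 CPM (log2 1.36) while SCD rose by log2 2.17. LINC02551 and AP003486.1 both follow SNX19, which rose by log2 0.70, and AP003486.1 rose by log2 1.36. Among the falls, AC125807.2, 764 bases after TEAD4, a Hippo pathway transcription factor gene, had 14.1, 14.7 and 14.5 CPM in NC and 7.04, 7.31 and 6.01 CPM in OE CD51 ICD. Its log2 fold change of -1.08 stood beside -1.26 for TEAD4. AL512274.1 (log2 -0.89) after C6orf132 (log2 -1.12) was similar.

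LINC01833 lies beside SIX3, an eye and forebrain homeobox gene, and had 25.6, 25.7 and 32.6 CPM in NC and 13.2, 15.2 and 15.3 CPM in OE CD51 ICD (log2 -0.94). The other lincRNAs with SIX3 as nearest gene, SIX3-AS1 and AC012354.1, had log2 fold changes of -0.34 and 0.30 and did not pass, while SIX3 fell by 0.59. For FLJ22447 the nearest gene by start is HIF1A, the oxygen-regulated transcription factor, 124973 bases away. It also begins 19564 bases after the end of PRKCH on the same strand. FLJ22447 had 0.694, 0.354 and 0.338 CPM in NC and 2.96, 3.14 and 2.36 CPM in OE CD51 ICD. Being under 1 CPM in NC, it was included through OE CD51 ICD. HIF1A rose by log2 1.01 and PRKCH by log2 0.57. LINC01303, whose start is 124860 bases from that of HIF1A, was at log2 0.09 and not called.

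Of 17 lincRNAs on chromosome 11, 9 were higher and 1 was lower, with a median log2 fold change of 0.60. Protein-coding genes of that chromosome also leaned upward, 41.8% being called higher against 25.7% of all protein-coding genes, and their median was 0.19. NEAT1, MALAT1, MIR210HG, LINC02551, AP003486.1 and LINC00294 (log2 1.68) are on it, and the part of the chromosome in their change was not tested. Of the 259 lincRNAs on other chromosomes, 28.6% were higher and 13.9% lower.

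The transcripts of called lincRNAs had lower median GC contents than the others, a difference that was not tested. The median was 46.3% for those higher, 49.7% for those lower and 51.2% for those not passed, against 48.4% for expressed protein-coding genes. The 276 were short, with a median gene length of 2408 bases and 3 exons against 5269 bases and 10 exons for protein-coding genes, and 78 had a single exon.

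Promoter windows were also searched for the AP-1 motif. AP-1 factors are FOS and JUN dimers that bind TGANTCA. It was present in 7 of 45 windows of higher lincRNAs (15.6%), 3 of 20 of lower (15.0%) and 3 of 83 of those not passed (3.61%), against 7.71% of all 35116 windows. Related windows are counted separately in these shares: the 7 include CYTOR and MIR4435-2HG, whose windows are identical over the aligned stretch, and the 3 lower ones include LINC02159 and LINC02009. The differences between the shares were not tested. The GC box GGGCGG, searched on both strands, was present in 40.0%, 55.0% and 73.5%, against 44.95% of all windows. The motifs were searched with the results known, 10 in all, and the shares are descriptions that show no binding. The lincRNAs that did not pass also had the highest GC content, and the part of base composition in these shares was not tested. LINC01629 and CYTOR, which rose, each hold 2 AP-1 matches, marked in capitals.
LINC01629 chr14:76959388-76959687 plus strand: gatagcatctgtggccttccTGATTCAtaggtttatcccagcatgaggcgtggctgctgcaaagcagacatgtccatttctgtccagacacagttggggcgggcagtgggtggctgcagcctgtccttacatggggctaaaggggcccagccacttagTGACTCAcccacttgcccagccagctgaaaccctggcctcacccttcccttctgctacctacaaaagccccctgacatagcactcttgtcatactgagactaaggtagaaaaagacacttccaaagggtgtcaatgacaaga
CYTOR chr2:87455177-87455476 plus strand: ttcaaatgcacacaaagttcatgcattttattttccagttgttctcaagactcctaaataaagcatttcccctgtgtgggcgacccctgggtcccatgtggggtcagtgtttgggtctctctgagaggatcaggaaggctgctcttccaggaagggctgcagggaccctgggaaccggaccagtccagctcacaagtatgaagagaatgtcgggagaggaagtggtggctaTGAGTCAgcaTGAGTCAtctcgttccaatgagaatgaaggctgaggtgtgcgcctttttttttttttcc
Around the start of CYTOR lies LINC01943 on the other strand, which had 0.347, 0.496 and 0.203 CPM in NC and 2.24, 2.46 and 2.72 CPM in OE CD51 ICD (log2 2.80). Being under 1 CPM in NC, LINC01943 was included through its OE CD51 ICD level. Part of it overlaps CYTOR, so some reads may belong to either. Of its longest transcript, 27.5% is nearly identical to AC017002.1, which overlaps MIR4435-2HG.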

How the data were processed

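RNA sequencing of 3 NC and 3 OE CD51 ICD libraries of ARPE-19 was deposited by the authors as gene counts and, in a separate table, as FPKM, for 58735 genes each, and the group of each library comes from its title. The submitters' processing notes name hg38. Per the file headers, both tables give GRCh38 coordinates, biotype and gene length. Aligner, counting program and strand setting: not given in the sources used here.

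Testing used the deposited counts, in R 4.3.3 with edgeR 4.0.16 (filterByExpr, TMM scaling, glmQLFit and glmQLFTest, two-sided) over 13787 genes, with Benjamini-Hochberg adjustment over all of them and a call at an adjusted p under 0.05. The spread between libraries was a biological coefficient of variation of 9.44%. The fit was tested on simulated data. A standard error was derived from the test's F statistic. CPM levels are scaled by TMM, while the level that chose the lincRNAs uses the library total. FPKM values deposited by the authors served for levels per length and for alternatives with limma 3.58.1 on log2(FPKM + 1) and log2(FPKM + 0.1). Other alternatives were RLE, upper-quartile and library-total scaling, limma-voom, DESeq2 1.42.0, changed low-count filters, each library left out, a replicate block, removal of the trend with GC content and other membership rules.

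The named genes were the 10 highest means, the 8 largest called rises and 8 largest called falls with groups that did not overlap, members of the lists, and nearest protein-coding genes. Others were chosen after their values were seen. The lincRNAs, lists and motifs were chosen with earlier results of these data known. Positions come from the count table and GENCODE 29, near-identical copies from minimap2 2.31 (at least 98% identity over 100 bases) and promoter likeness from BLAST 2.17.0. Figures used matplotlib 3.10.9.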

Additional observations from a re-analysis of the deposited data

How the results depend on the processing

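Of the 120 lincRNAs called, 83 were called in all 18 refits (62 higher and 21 lower). No named lincRNA reversed direction where it was called in the main fit or in the refit. Sign changes of lincRNAs called in neither were not counted. The median log2 fold change of 0.16 was 0.20 with upper-quartile scaling, 0.091 with library totals alone, 0.21 with the GC trend removed, 0.21 with the replicate block and the GC trend removed, 0.066 on log2(FPKM + 1), 0.13 on log2(FPKM + 0.1), 0.21 with lincRNAs from a mean of 0.5 up, 0.10 with at least 1 CPM in each group, 0.016 for lincRNAs that overlap no gene, and 0.15 to 0.23 with each library left out. Over all genes tested the median stayed between -0.05 and 0.07. The share that rose at least 2-fold, 20.7%, was 7.97% on log2(FPKM + 1), a scale that understates change at low values, and 12.7% with at least 1 CPM in each group. For falls of at least 2-fold, 6.16%, these were 1.81% and 3.64%. Leaving out each library gave 25.4% to 28.6% higher and 9.78% to 11.2% lower.

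Replicate numbers are shared between the groups, but the deviations of same-numbered libraries correlated at -0.04281, -7.96e-05 and 0.04072, so they were not taken as pairs. With the replicate block, 29.3% were higher and 12.7% lower, with a median of 0.16.

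Depth limits these values, since 115 of the 276 average 1 to 2 CPM and rises from NC levels of a few counts have uncertain size. Overlapping genes, near-identical copies (10 of the 276 have at least 50% of their longest transcript like another locus) and unstated strand limit which locus a read belongs to.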

Other observations

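In 12 of the 77 pairs with both genes called, the lincRNA and its nearest protein-coding gene moved in opposite directions, and 3 of these had starts within 55 kb (MIR22HG and WDR81, SFTA1P and CELF2, MIR137HG and DPYD). Among the more distant pairs, LINC01411 went from 1.42 ± 0.801 to 5.82 ± 0.713 CPM while MSX2, a homeobox gene, went from 7.81 to 3.77 CPM, their starts 388238 bases apart. LINC01111 went from 3.65 ± 0.764 to 1.42 ± 0.0428 CPM while ZFHX4 went from 12.8 to 17.3 CPM. AL445205.1 went from 2.31 ± 0.584 to 0.984 ± 0.12 CPM while CACHD1, a calcium channel subunit relative, went from 9.38 to 29.5 CPM. IGFL2-AS1 and its neighbour AC007785.1, which overlaps it, rose by log2 1.19 and 1.80, whereas the nearest tested protein-coding genes, PPP5C and CCDC61, fell by 0.55 and 0.67. These pairs were picked for their direction, and are values with no test of the pairing.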
